A study of Mus musculus with 6 samples.

Results

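Transcripts of the T cell receptor loci were read in mouse bone marrow progenitors with and without an active form of Notch2. The set holds 7 genes of the probe table, which were chosen by their symbol with their differences between the genotypes already known: Tcra, Trav13-5 and Trav9d-3 of the alpha locus, Trbv1 and Trbv13-2 of the beta locus, and Trgv1 and Trgv4 of the gamma locus. Every probe set listed under exactly 1 of these symbols was taken, which gave 14 of the 45101 probe sets on the array. The alpha locus had 7 of them, the beta locus 3 and the gamma locus 4. Because the choice used the contrast of the genotypes, the values of these probe sets in that contrast are a description and carry no test.

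A T cell receptor is a pair of chains, alpha with beta or gamma with delta, held at the cell surface by the CD3 chains. Each chain gene is assembled in the developing T cell from separate variable and joining segments, ahead of a constant segment. In the beta and delta loci diversity segments are joined as well. The RAG recombinase and the DNA end-joining enzymes carry this out. Unrearranged segments can be transcribed before they are joined, so transcripts of a receptor locus are not by themselves the product of a finished receptor gene. Notch signalling directs lymphoid progenitors into the T lineage in the thymus. Myeloid and erythroid progenitors of the bone marrow do not normally assemble these genes.

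The cells were sorted from bone marrow as negative for lineage markers and Sca1 and positive for cKit, and are called myeloerythroid progenitors in the labels. Both groups carried Mx1-cre and were 6 weeks of age, and each was given polyIC (20 mcg for each g) 3 times, with analysis 1 week after the last dose. PolyIC raises interferon, which turns on the recombinase in interferon-responsive cells and so not in the sorted population alone. The ICN2 negative group had the genotype Mx1-cre+ (3 arrays, all female). The ICN2 positive group had the genotype Rosa-lsl-ICN2 Mx1-cre+ (3 arrays, all male), in which Cre opens a transgene at the Rosa locus for the intracellular domain of Notch2. Since sex runs with genotype on every array, the effects of these cannot be told apart; of 4 sex-linked genes Kdm5d, Eif2s3y and Uty were called higher and Xist lower, as the labelled sexes have it. Whether each array came from its own animal is not stated, so errors and p-values describe only how far these arrays scatter, and that scatter may be technical.

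Values are log2 of RMA intensity, where RMA is the method that corrects, equalises and summarises the probes of an array. They set arrays against each other for 1 probe set and do not rank 1 probe set's level against another's. Array medians lay between 6.05 and 6.09, and the 40th percentile of each array, used here as the limit for dim probe sets, between 5.26 and 5.30. Of the defining genes of the sort, Kit lay between 10.15 and 10.86 on the 6 arrays and the myeloid lineage marker Itgam between 3.82 and 3.98, below the 40th percentile on each. Within the ICN2 positive group, replicate 1 differed most from the others (correlations with them of 0.984 and 0.988, against 0.995 between the others): the progenitor genes Mpo, Cd34 and Fcgr3 were lowest of the 6 arrays there, at 11.71, 9.50 and 8.25. None of 5 tested genes of the sorted population passed in limma, and none had an unadjusted p under 0.05. Their median difference was -1.02, against 0.02 over all genes tested, and -0.37 without ICN2 positive replicate 1. Of the 6 genes read, 3 were lower in ICN2 positive cells without overlap, beside 11.1% of all probe sets. The list mean was 10.77 to 10.95 on the ICN2 negative arrays and 9.01 to 10.67 on the ICN2 positive arrays. The 2 sorted populations are thus not shown to be alike. In the fit over the whole array, limma called 728 of 27424 probe sets tested at an adjusted p of 0.05 (2.65%), of which 457 were higher in ICN2 positive cells (1.67%) and 271 lower (0.988%).

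Of the 14 receptor probe sets, 6 had all 3 ICN2 positive arrays above all 3 ICN2 negative arrays, 8 overlapped and none lay lower throughout. Over the 45037 probe sets of the array that are no controls, 14.5% had ICN2 positive arrays higher without overlap. The filter on dim probe sets was passed by 8 of the 14. Tcra passed it through its ICN2 positive arrays alone, and the other 6 were below the 40th percentile on every array. In the fit, 3 of these 8 were called higher, beside 1.67% of all probe sets tested, of which 19.7% had ICN2 positive arrays higher without overlap. Since the set was picked with this contrast in view, no weight is put on these counts.

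**Figure D1:**
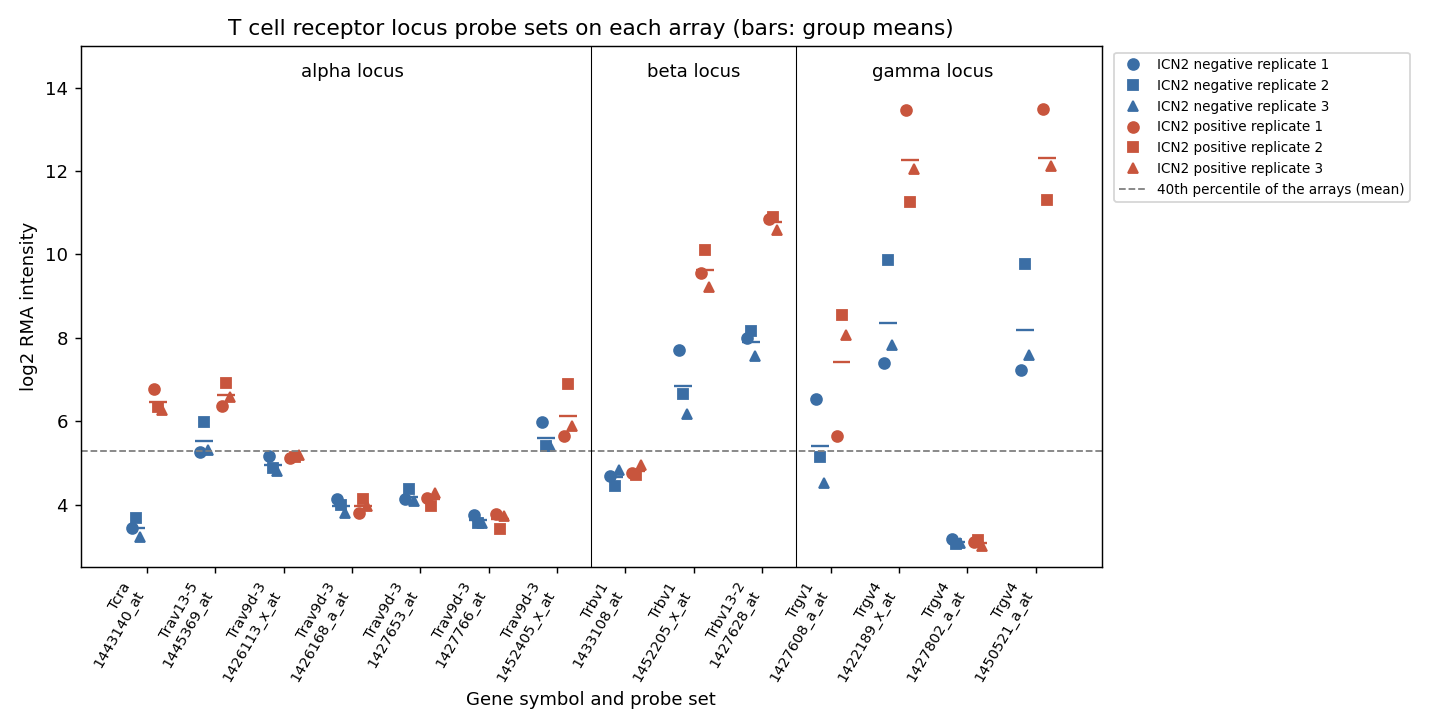
Log2 RMA intensity (vertical axis) of the 14 receptor locus probe sets (horizontal axis, grouped by locus) on each of the 6 arrays, with blue for ICN2 negative, red for ICN2 positive, 1 marker shape per replicate number, short bars at the group means and a dashed line at the 40th percentile. The 2 bright Trgv4 probe sets span the widest range, up to 13.48, while 6 probe sets, 4 of them of Trav9d-3, lie below the dashed line on all arrays.

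At the beta locus, on chromosome 6, Trbv13-2 and the brighter probe set of Trbv1 were both far higher in ICN2 positive cells, on each of the 3 arrays. Trbv13-2 is a variable segment whose RefSeq synonyms include Tcrb, the name of the whole locus, so its probe set (1427628_at) may read more than that segment. Its log2 intensity was 7.99, 8.17 and 7.55 on ICN2 negative replicates 1, 2 and 3 and 10.85, 10.89 and 10.58 on ICN2 positive replicates 1, 2 and 3. The groups were 2.41 apart at their nearest arrays, and the 3 ICN2 positive arrays lay within 1.24-fold of each other. The difference of the means was 2.87 ± 0.18 (log2, SE of the fit, n = 3 per group), which is 7.31-fold.

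Trbv1 is the variable segment at the far end of the beta locus from the joining and constant segments. Its brighter probe set (1452205_x_at) stood at 7.72, 6.65 and 6.18 on the ICN2 negative arrays in replicate order and at 9.55, 10.10 and 9.22 on the ICN2 positive arrays. The groups did not overlap, but the ICN2 negative arrays were spread over 2.91-fold, with replicate 1 the highest. The difference was 2.78 ± 0.44, or 6.85-fold, and lay between 2.44 and 3.21 with any 1 array left out. The suffix x marks an Affymetrix probe set some of whose probes can bind other transcripts. The other Trbv1 probe set (1433108_at) lay between 4.44 and 4.94, below the 40th percentile on all arrays, with overlapping groups and a difference of 0.16. A difference cannot be read from a probe set this dim.

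At the alpha locus, on chromosome 14, 3 of the 7 probe sets passed the filter on dim probe sets, and for 2 of these the groups did not overlap. Tcra is the symbol of the alpha locus as a whole. Its probe set (1443140_at) was at 3.44, 3.69 and 3.21 on the ICN2 negative arrays and at 6.78, 6.33 and 6.28 on the ICN2 positive arrays. All 3 ICN2 negative arrays were below their 40th percentile and all 3 ICN2 positive arrays above it. The means differed by 3.02 ± 0.19. Set against the 40th percentile in place of the dim values, the ICN2 positive mean was at least 2.26-fold higher, a bound under that limit and not under a measured background.

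Trav13-5, an alpha variable segment, was read by 1 probe set (1445369_at) at 5.26, 5.98 and 5.32 on the ICN2 negative arrays and 6.36, 6.92 and 6.58 on the ICN2 positive arrays. The groups were separate by 0.39 at their nearest, less than the 0.40 SD of the ICN2 negative arrays, and the means differed by 1.10 ± 0.24 (2.15-fold). Trav9d-3, another alpha variable segment, had 5 probe sets. For 4 of them all arrays lay below the 40th percentile, between 3.42 and 5.20, with differences from -0.06 to 0.21 and overlapping groups. The fifth (1452405_x_at) was at 5.97, 5.40 and 5.41 on the ICN2 negative arrays and 5.64, 6.90 and 5.87 on the ICN2 positive arrays. These groups overlapped, and only ICN2 positive replicate 2 lay above all ICN2 negative arrays. Its difference of 0.54 ± 0.36 was 0.16 without that array.

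The gamma locus, on chromosome 13, held both the widest differences and the widest spread within groups. Trgv4 is a variable segment of the gamma chain. Probe set 1450521_a_at was at 7.24, 9.77 and 7.58 on ICN2 negative replicates 1, 2 and 3, and at 13.48, 11.30 and 12.12 on ICN2 positive replicates 1, 2 and 3. ICN2 negative replicate 2 was well above the other arrays of its group, which spanned 5.79-fold, and ICN2 positive replicate 1 was the highest of its group, which spanned 4.53-fold. The groups still did not overlap, with 1.53 between the nearest arrays. The difference was 4.11 ± 0.85 (17.2-fold), and leaving out 1 array gave 3.52 (ICN2 positive replicate 1) to 4.89 (ICN2 negative replicate 2).

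A second Trgv4 probe set (1422189_x_at) gave nearly the same picture. It was at 7.40, 9.86 and 7.83 on the ICN2 negative arrays and at 13.46, 11.26 and 12.06 on the ICN2 positive arrays, a difference of 3.90 ± 0.83 (14.9-fold). The same arrays were highest in each group. The third (1427802_a_at) lay between 3.01 and 3.18 on all arrays, near the bottom of the intensity range, with a difference of -0.01. Whether any of these probe sets reads the variable segment itself or the shared constant segment was not determined here.

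Trgv1, a variable segment at the other end of the gamma locus, did not follow Trgv4. Its probe set (1427608_a_at) was at 6.53, 5.14 and 4.52 on the ICN2 negative arrays and at 5.65, 8.55 and 8.06 on the ICN2 positive arrays. ICN2 positive replicate 1, the highest array for Trgv4, was here the lowest of its group and lay below ICN2 negative replicate 1. The groups therefore overlapped. The ICN2 positive arrays spanned 7.46-fold, and the difference of 2.02 ± 0.89 was 2.90 without ICN2 positive replicate 1 and 1.45 without replicate 2. Only 1 of the 3 ICN2 negative arrays lay above its 40th percentile, so the size of this difference rests partly on dim values.

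**Figure D2:**
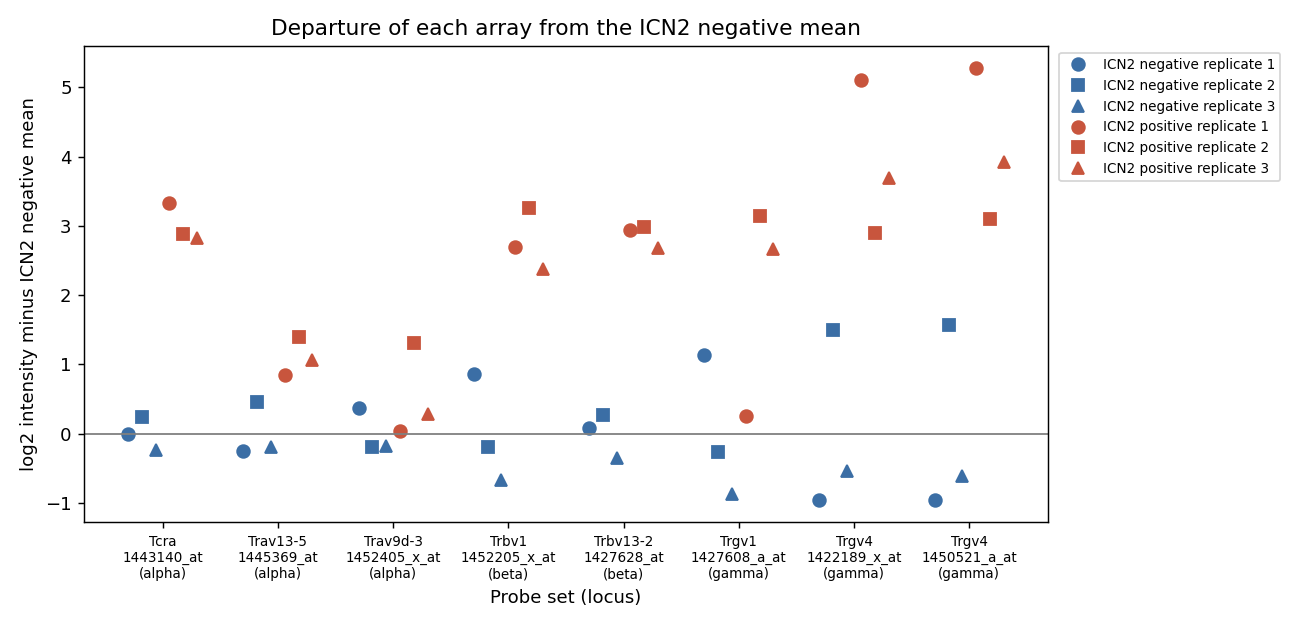
Log2 intensity of each array minus the mean of the 3 ICN2 negative arrays (vertical axis) for the 8 receptor probe sets that passed the filter on dim probe sets (horizontal axis, with the locus in brackets). Trbv13-2 and Tcra have ICN2 positive arrays close together, Trgv4 has ICN2 positive replicate 1 on top at 5.10 and 5.29, and Trgv1 has the same array at 0.25.

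Set side by side as departures from the ICN2 negative mean, the loci differed in how even the ICN2 positive arrays were. For Trbv13-2 these departures were 2.95, 2.99 and 2.67 on replicates 1, 2 and 3, and for Tcra 3.34, 2.88 and 2.83. For Trgv4 (1450521_a_at) they were 5.29, 3.11 and 3.93, and for Trgv1 0.25, 3.15 and 2.66. Replicate 1 was thus the highest of the 3 for Trgv4 and Tcra and the lowest for Trgv1, Trav13-5 and the brighter Trav9d-3 probe set. For Trbv1 (1452205_x_at) and Trbv13-2 replicate 2 was the highest. With 3 arrays a group these orders describe the libraries, and whether they differ between animals was not tested. In bulk RNA, fewer cells that carry a transcript and less of it per cell cannot be told apart.

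RefSeq's mouse assembly GRCm38.p6 places Trgv4 next to Trgv7 and Trgv6, with Trgv5 and the segments Trgj1 and Trgc1 following. Trgv1 stands next to Trgv2, beside Trgj4 and Trgc4. The 2 gamma symbols thus lie in different clusters of the locus, each with its own joining and constant segment. A further probe set (1422188_s_at) is listed for both Trgv4 and Trgv2 and so belongs to neither here. It was at 7.77, 10.05 and 7.63 on the ICN2 negative arrays and at 13.67, 11.50 and 12.27 on the ICN2 positive arrays. The difference was 3.996 ± 0.84 (adjusted p = 0.0741 in limma), with the same arrays highest as for Trgv4.

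Besides this shared probe set, 3 others are listed for the alpha locus. Trav6-3, Trav12n-1 and Trav12n-2 differed by -0.03, -0.06 and -0.28, with overlapping groups, and none passed the filter on dim probe sets. None of these 4 further receptor probe sets was called by limma, and only the shared Trgv4 and Trgv2 probe set was tested. Delta locus segments were not analysed here. Of the 7 genes, the sequence tables hold no promoter entry, so no sequence is shown.

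The genes that hold, signal from and assemble the receptor were read from 6 lists of 69 genes. Each was read by its brightest probe set with 1 gene, and 52 passed the filter. Of these, 4 rose and none fell in limma, beside 3.16% called among 12834 genes read the same way (1.89% higher and 1.27% lower). Il2ra, among the 4, passed the filter through its ICN2 positive arrays alone. The other 48 of the 52 were not called. For 37 of these 48, leaving out some 1 array moved the difference by over 1.5 times or turned its sign. Of the 52, 15 had an unadjusted p under 0.05 in limma. The share of all genes under this unadjusted limit was not computed. This count and those given for single lists therefore have no reference and are not read as a result. The median difference was 0.11, against 0.02 over all genes.

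The CD3 chains, which carry the receptor to the surface and pass its signal on, had higher means in ICN2 positive cells, but none of 5 tested genes of this list passed in limma, and 2 had an unadjusted p under 0.05. Cd3e was at 6.14, 5.40 and 5.27 on the ICN2 negative arrays and at 7.17, 7.52 and 6.16 on the ICN2 positive arrays, a difference of 1.35 ± 0.41 (adjusted p = 0.131). Its groups touched, with ICN2 positive replicate 3 only just above ICN2 negative replicate 1. Cd3g differed by 1.52 ± 0.54 (adjusted p = 0.166) and Cd3d by 1.25 ± 0.53 (adjusted p = 0.22), both with overlapping groups. Cd247, the zeta chain, differed by 0.36 ± 0.24, and Fcer1g, an adaptor chain of Fc receptors that can stand in for zeta, by -1.27 ± 0.67, which was -0.48 without ICN2 positive replicate 1. Ptcra, the surrogate alpha chain that pairs with beta before alpha is assembled, was below the 40th percentile on all 6 arrays, between 3.76 and 5.06. Over the 6 genes the list mean of log2 intensity was 6.17 to 6.80 on the ICN2 negative arrays and 6.54 to 7.60 on the ICN2 positive arrays.

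The CD3 genes and Trgv4 did not order the arrays alike. Among ICN2 positive arrays Cd3e, Cd3d and Cd3g were lowest on replicate 3, at 6.16, 5.74 and 5.28, where Trgv4 (1450521_a_at) was at 12.12, above replicate 2. Among ICN2 negative arrays the 3 genes were highest on replicate 1, where Trgv4 was lowest, at 7.24. Trbv1 (1452205_x_at) ordered the arrays within each group as Cd3e did. Both were highest on replicate 1 and lowest on replicate 3 among ICN2 negative arrays. Among ICN2 positive arrays both were highest on replicate 2 and lowest on replicate 3. Trbv13-2 had this same order among ICN2 positive arrays, but was highest on replicate 2 among ICN2 negative arrays. The part of T cells among the sorted cells in the receptor values was not tested.

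**Figure D3:**
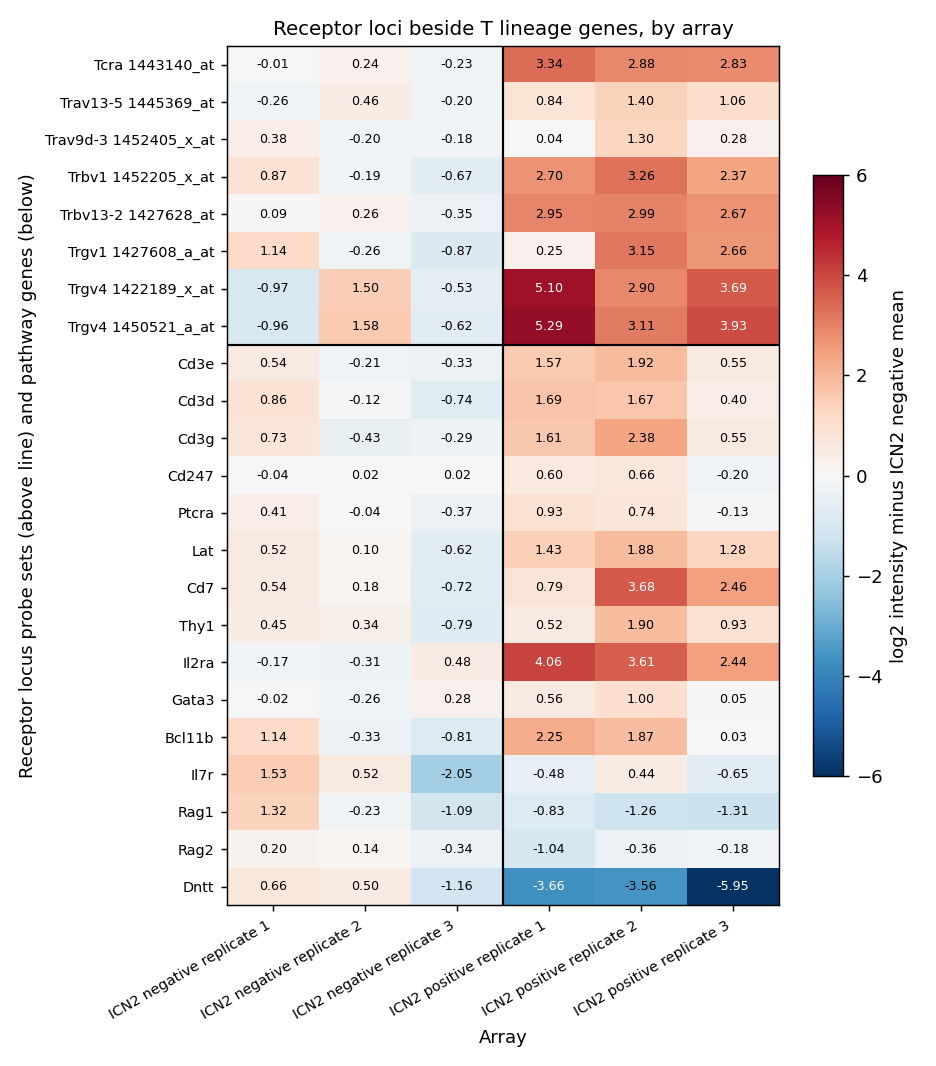
Log2 intensity minus the mean of the 3 ICN2 negative arrays, as colour and printed value, for the 8 receptor probe sets that passed the filter (rows above the line) and 15 pathway genes (rows below it) on the 6 arrays (columns). Trbv13-2, Trbv1, Tcra and Trgv4 are 2.37 or more above the ICN2 negative mean on each ICN2 positive array, Trav13-5 and Trav9d-3 are at most 1.40 above it, and Dntt is blue on all 3. Rag1 and Rag2 are below 0 on each ICN2 positive array, but their groups overlap and neither passed the filter, so no difference is read.

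Of 8 tested receptor signalling genes, none passed in limma and 3 had an unadjusted p under 0.05. Lat, the membrane adaptor that links the receptor to downstream enzymes, had the smallest p. It was at 8.25, 7.83 and 7.11 on the ICN2 negative arrays and at 9.16, 9.61 and 9.01 on the ICN2 positive arrays, a difference of 1.53 ± 0.32 (adjusted p = 0.0735). Syk, a kinase that can act in place of Zap70, differed by -0.27 ± 0.08 (adjusted p = 0.118). Grap2, an adaptor that binds Lat, differed by -0.60 ± 0.23; leaving out ICN2 positive replicate 1 made this -0.37. The kinase gene Fyn differed by 0.73 ± 0.39, and by 0.33 without ICN2 negative replicate 3. With 2 probe sets, Trat1, a transmembrane adaptor of the receptor, differed by 0.93 and 2.37, and neither passed the filter.

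Of the recombination enzymes, both genes that passed were of DNA end joining. Xrcc5, the Ku80 subunit that binds broken DNA ends, rose from 11.02, 10.71 and 10.92 to 12.13, 11.82 and 11.90, by 1.07 ± 0.13 (adjusted p = 0.0197). Lig4, the ligase that seals the ends, rose by 0.82 ± 0.14 (adjusted p = 0.0474). These were 2 of 8 tested genes of the list, and none fell. Leaving out replicate 3 of either group or replicate 2 of the ICN2 negative group ended the Xrcc5 call, and leaving out any single array ended that of Lig4 (adjusted p = 0.064 to 0.163).

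Rag1 and Rag2 encode the recombinase that cuts the segments. Rag1 was at 7.15, 5.61 and 4.75 on the ICN2 negative arrays and at 5.00, 4.57 and 4.53 on the ICN2 positive arrays, which were all below the 40th percentile. Rag2 was at 5.52, 5.46 and 4.98 and at 4.28, 4.96 and 5.14. Neither passed the filter, and for both the groups overlapped, so no difference is read from them. Dntt, the terminal transferase that adds bases at the joints, was at 12.26, 12.10 and 10.45 on the ICN2 negative arrays and at 7.95, 8.05 and 5.65 on the ICN2 positive arrays. This is its brightest probe set, and the difference of -4.39 ± 0.81 missed the threshold (adjusted p = 0.057). It passed with the stricter filter (adjusted p = 0.049), with trend and robust eBayes (0.0347), with array weights (0.015) and with the replicate number as a term (0.0205). Of the other Dntt probe sets, 1420166_at fell by 4.47 ± 0.76 on the log2 scale (adjusted p = 0.0478), a call that was lost with any single array left out (adjusted p = 0.0607 to 0.175), and 1450545_a_at differed by -3.41 ± 0.82 (adjusted p = 0.0905).

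Of 15 tested T lineage transcription factors, 1 rose and none fell. This was Hes1, a repressor induced by Notch, at 5.96, 5.44 and 5.55 on the ICN2 negative arrays and 7.38, 7.60 and 7.44 on the ICN2 positive arrays (1.82 ± 0.16, adjusted p = 0.00894). The call was lost without replicate 3 of either group (adjusted p up to 0.0582). Bcl11b, which commits cells to the T lineage, was at 6.84, 5.38 and 4.90 and at 7.95, 7.57 and 5.73, with a difference of 1.38 ± 0.75 (adjusted p = 0.316). Its ICN2 positive replicate 3 lay within the ICN2 negative range. Gata3, required from the earliest T cell stages, differed by 0.53 ± 0.27 (adjusted p = 0.287). Tcf7 was not analysed here. The E protein genes Tcf3 and Tcf12 differed by 0.40 ± 0.16 and 0.21 ± 0.10 without passing. Sox13, a factor of gamma delta T cells, differed by -0.70 ± 0.26 (adjusted p = 0.176).

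Interleukin 7 signals through STAT5 to open the gamma locus for transcription and recombination. None of 7 tested genes of this list passed in limma, and 1 had an unadjusted p under 0.05. Il7r, the receptor chain, was at 9.23, 8.22 and 5.64 on the ICN2 negative arrays and at 7.21, 8.14 and 7.05 on the ICN2 positive arrays. The groups overlapped fully (-0.23 ± 0.93, adjusted p = 0.903). Jak1 and Jak3, the kinases of the receptor, differed by 0.14 ± 0.09 and -0.23 ± 0.16, and Stat5a and Stat5b by 0.09 ± 0.07 and 0.03 ± 0.11.

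Of 11 tested T cell surface genes, 1 rose and none fell. Il2ra, the interleukin 2 receptor alpha chain of immature thymocytes, was at 4.16, 4.02 and 4.81 on the ICN2 negative arrays, all below the 40th percentile, and at 8.39, 7.94 and 6.77 on the ICN2 positive arrays (adjusted p = 0.0283). The other Il2ra probe set (1420691_at) was below the 40th percentile on all arrays, with overlapping groups and a difference of 0.24. The called probe set (1420692_at) passed the filter through its ICN2 positive arrays alone. Set against the 40th percentile, its ICN2 positive mean was at least 5.33-fold higher. The call was lost without any 1 of the ICN2 negative arrays or without ICN2 positive replicate 2 (adjusted p up to 0.123). Without ICN2 positive replicate 1, 3 surface genes rose: Il2ra, Icos and Cd6. The costimulatory receptor gene Icos differed by 1.43 ± 0.41 (adjusted p = 0.118) on all arrays. Cd7, an early T lineage surface gene, was at 7.87, 7.51 and 6.61 and at 8.12, 11.02 and 9.79 (2.31 ± 0.76, adjusted p = 0.148). Cd4, the coreceptor of helper T cells, differed by -0.39 ± 0.10 (adjusted p = 0.0989), with all ICN2 positive arrays below the 40th percentile. Cd8b1, the coreceptor chain of cytotoxic T cells, was below it on all 6 arrays.

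Genes of other cell types moved as well, beside 1.89% called higher and 1.27% lower among all genes tested. Among 7 tested genes of NK and cytotoxic cells, Gzma and Gzmb, which encode proteases of cytotoxic granules, rose by 5.94 ± 0.65 and 5.07 ± 0.28, while the NK transcription factor genes Eomes and Tbx21 were below the 40th percentile on all arrays. With any 1 ICN2 negative array or ICN2 positive replicate 3 left out, 1 of these genes rose. The other 5 tested genes differed by -0.81 (Klrk1) to 1.24 (Ctsw) and were not called, with Nkg7 at -0.30 and Prf1 and Klrd1 at 0.08. The median difference of the tested genes was 0.08. The list mean was 6.67 to 7.07 on the ICN2 negative arrays and 7.28 to 8.76 on the ICN2 positive arrays. Among ICN2 positive arrays it was lowest on replicate 1, where Trgv4 was highest. Of 11 mast cell and basophil genes 4 rose and none fell, and 2 rose with ICN2 negative replicate 2 or 3 left out. Of the 4, Mcpt1, Mcpt2 and Mcpt4 passed the filter through their ICN2 positive arrays alone, so they could only be called higher. That list's mean was 7.47 to 7.74 and 8.47 to 10.05, but its median difference among tested genes was only 0.24. Its 7 genes that were not called differed by -1.35 (Fcer1a) to 0.82 (Cma1). Among these 7, Cpa3, Mcpt8 and Ms4a2 differed by -0.32, -0.39 and -0.03. The higher list mean is thus not a rise of the list as a whole. Of 10 monocyte and dendritic cell genes 1 fell, and 4 with ICN2 positive replicate 1 left out. Of 8 neutrophil genes 1 fell; leaving out ICN2 negative replicate 2 or 3 gave none, and leaving out ICN2 positive replicate 1 gave 2. The monocyte and dendritic list mean went from 9.92 to 10.37 on the ICN2 negative arrays to 7.31 to 9.12 on the ICN2 positive arrays. The neutrophil list mean went from 10.47 to 10.85 to 8.99 to 10.22. Of 9 erythroid genes 1 fell, and none without any 1 ICN2 negative array, while none of 7 megakaryocyte genes was called in limma (1 at an unadjusted p under 0.05). Their part in the receptor values was not tested.

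The immunoglobulin loci, which are assembled by the same recombinase in B cells, were read for comparison. Of 56 probe sets listed for them, 15 passed the filter, and limma called none higher and 2 lower, beside 0.988% lower over the array. An Ighm probe set (1427329_a_at), for the heavy chain of IgM, fell from 9.90, 10.18 and 9.86 to 7.83, 6.58 and 6.30, by 3.08 ± 0.40 on the log2 scale (adjusted p = 0.0271). It was the only 1 called of 11 Ighm probe sets. The brightest (1427351_s_at) differed by -2.49 ± 0.65 without passing (adjusted p = 0.102 in limma). The tested probe sets 1426196_at and 1452535_at differed by 0.05 and -0.15, with overlapping groups. A probe set of the heavy chain variable segment Ighv14-2 fell from 6.25, 5.86 and 5.79 to 4.52, 4.06 and 3.69 (adjusted p = 0.0261). No immunoglobulin probe set was called with any 1 ICN2 negative array, ICN2 positive replicate 2 or ICN2 positive replicate 3 left out. Of 9 tested B cell genes none passed in limma, with 6 at an unadjusted p under 0.05 and a median of -1.94. Blnk, an adaptor of the B cell receptor, was at -2.57 ± 0.60 (adjusted p = 0.0876), while Cd22 differed by 1.17 ± 0.87. The list mean spread widely within the ICN2 negative group, at 8.79, 7.82 and 6.93 on replicates 1, 2 and 3. On the ICN2 positive arrays it was 6.11 to 6.76. Without ICN2 negative replicate 1 the median was -1.41. ICN2 positive replicate 1 was the highest of the 6 arrays for 36 of the 56 immunoglobulin probe sets. How often this array was highest over all probe sets was not computed. Of the 56, 34 lay below the 40th percentile on all arrays, where a difference cannot be read. On ICN2 positive replicate 1, 20 lay above the 40th percentile, against 9 to 14 on the other arrays. Igha (1421653_a_at), the heavy chain of IgA, was at 9.08 on ICN2 positive replicate 1 and at 4.45 to 5.12 on the other arrays. A kappa light chain probe set (1452557_a_at) was at 10.96 there, at 5.76 and 5.54 on ICN2 positive replicates 2 and 3, and at 7.86, 9.34 and 5.24 on the ICN2 negative arrays. The same array was the highest for Trgv4, and the part of that library in the Trgv4 values was not tested beyond leaving it out. The difference between the receptor loci of T and B cells was not tested.

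Genes next to the receptor loci were read by their order on GRCm38.p6, taking the 3 nearest protein-coding genes that passed the filter on either side and those inside. Inside the beta locus lies Prss2, a trypsinogen gene of the pancreas that directly precedes the diversity segment Trbd1. Its brightest probe set (1433459_x_at) was at 5.24, 5.17 and 5.36 on the ICN2 negative arrays and at 7.60, 8.62 and 7.70 on the ICN2 positive arrays. It rose by 2.72 ± 0.28 (adjusted p = 0.0142), with only 1 of the 3 ICN2 negative arrays above its 40th percentile, so the size rests partly on dim values. All 4 Prss2 probe sets had ICN2 positive arrays higher without overlap, with differences from 1.78 to 3.13, and 3 of them were called. The call of the brightest was lost without any 1 ICN2 negative array or without ICN2 positive replicate 3 (adjusted p up to 0.0862). Trypsinogen genes resemble each other closely, and whether these probe sets also read neighbouring copies was not tested.

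The other neighbours did not pass. Inside the beta locus, the trypsinogen-like gene 2210010C04Rik, between Trbv1 and the next variable segments, differed by -1.72 ± 0.76. Ephb6, the gene after the last beta variable segment and an ephrin receptor expressed in T cells, differed by 0.89 ± 0.27 (adjusted p = 0.126). Mgam, on the Trbv1 side of the beta locus, differed by -3.76 ± 0.99 (adjusted p = 0.104) and fell without ICN2 positive replicate 1. At the alpha locus the transcription factor gene Sall2 differed by 1.56 ± 0.50 (adjusted p = 0.14), while Dad1, the nearest gene tested beyond the alpha constant segment, differed by -0.04 ± 0.07. At the gamma locus the 6 neighbours differed by -0.14 to 0.68, with Vps41 and Stard3nl, the nearest tested on each side, at 0.02 ± 0.08 and 0.41 ± 0.16.

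**Figure D4:**
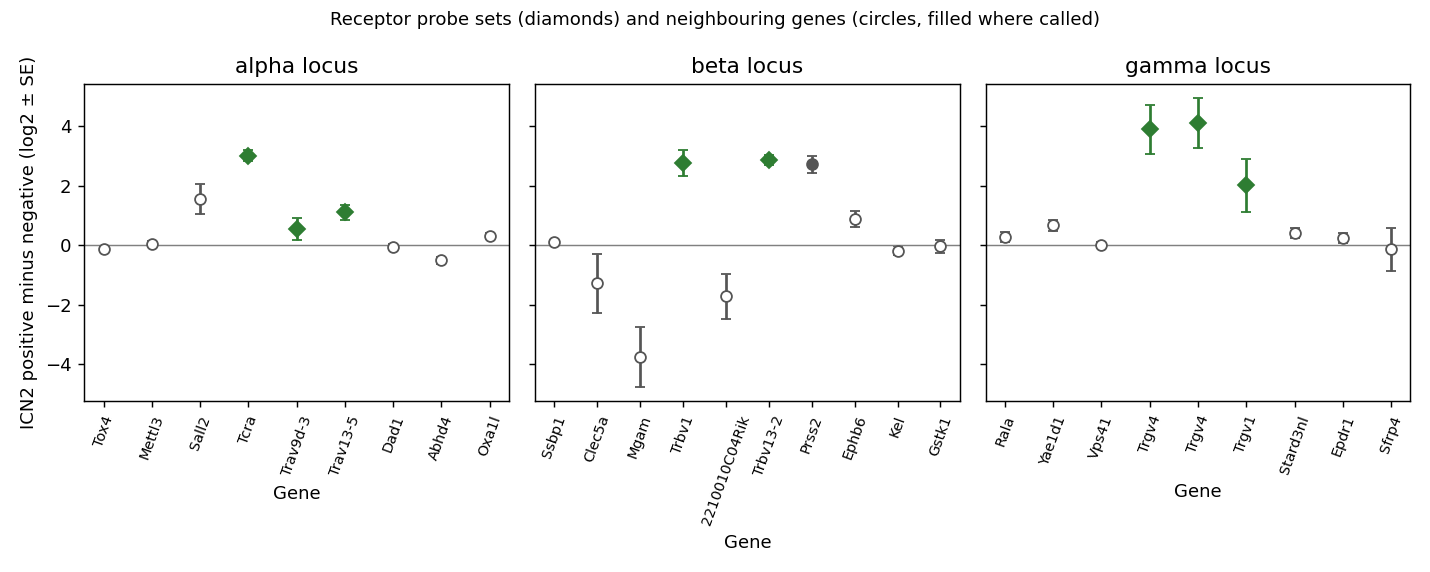
Difference between the genotypes (ICN2 positive minus negative, log2 intensity, with SE bars from the fit, vertical axis) for receptor probe sets that passed the filter (green diamonds, untested here) and neighbouring genes (circles, filled where limma called them) in the order of the genes along each locus (horizontal axis, not to scale, with Tcra, which spans the alpha locus, placed first). Prss2 at 2.72 is the filled circle, with ICN2 negative arrays near or below the 40th percentile, and the gamma neighbours lie near 0 beside Trgv4 at 3.90 and 4.11.

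For the brightest probe set of each locus, the genes with the most similar profile were taken from 2607 other genes tested whose range over the arrays was at least 1 on the log2 scale. The 6 arrays fall into 2 groups, so a high correlation mostly says that a gene separated them in the same way. For Trbv13-2 the 5 closest were Ahr, the aryl hydrocarbon receptor, Tbc1d30, Rhoh, a GTPase of blood cells, Tcra and the mast cell protease gene Mcpt2 (Pearson r of 0.994 to 0.995). Tcra and Trbv13-2 were both chosen with their difference known, so their place in this order follows from that choice. For Trgv4 they were Exoc3l4, Eda2r, Adgre5, Trim17 and Nrbp2 (r of 0.968 to 0.98), and for Trav13-5 Mkln1os, Kcne3, Ifit1bl1, Dpf3 and Muc13 (r of 0.976 to 0.987). None of these 10 was called by limma.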

How the data were processed

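RNA of each sample (5 ng) was amplified and hybridised to Affymetrix mouse arrays, per the labels' protocols. The deposited values are 1 intensity per probe set and array on a linear scale, made by the authors with RMA (no version named), as the submitters' processing notes and the labels have it. No scanner file or detection call was used. The number of arrays limits the precision. Here log2 was taken. Of 45101 probe sets 64 were controls, 34958 had 1 gene, 932 several and 9211 none in the platform annotation. All 7 receptor symbols matched RefSeq GRCm38.p6 by gene identifier. Testing was limited to the 27424 probe sets that exceeded the 40th percentile of the array in 3 or more of the 6 arrays. The main test was limma 3.58.1 (lmFit and eBayes, no covariate, R 4.3.3), ICN2 positive minus ICN2 negative, with Benjamini-Hochberg adjustment over all probe sets tested and a threshold of 0.05. A gene outside the receptor loci was read by its brightest probe set.

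The receptor genes, the lists and the tests were chosen with earlier results of these data known. Named were each receptor probe set, the genes of smallest p in each list of the receptor pathway, a few genes fixed by name (Rag1, Rag2, Ptcra, Cd3e, Tcf7, Gata3, Bcl11b, Il7r) and the 5 closest profiles. For lists of other cell types, counts are given. Neighbouring genes and further probe sets were added after the files were seen. On simulated data with 27424 probe sets and 200 seeded changes the fit recovered 58% of changes of 1 (log2) and 88% of changes of 2. Alternatives covered the filter, normalization, variance model, array weights, replicate number as a term and each array left out.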

Additional observations from a re-analysis of the deposited data

How the results depend on the processing

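The differences of all 14 receptor probe sets moved by less than the larger of the SDs of both groups under quantile normalization, median centring, array weights, the replicate number as a term and with each array left out, in 140 fits of 1 probe set each. Most of these fits could not have failed. In this balanced design the replicate term leaves a difference unchanged. With 3 arrays a group, leaving out 1 cannot shift the mean by as much as the group's SD. Median centring shifts all probe sets alike. No weight is put on this count. Over the array, 728 probe sets were called. The count was 1252 with trend and robust eBayes, 3970 with array weights, 268 with the replicate block, and 95 to 860 with 1 array left out. Of the further receptor probe sets 0 were called, and 1 with trend and robust eBayes or with array weights (the shared Trgv4 and Trgv2 probe set, higher). Of the immunoglobulin probe sets 2 were called, 1 with the stricter filter at the 60th percentile, 1 with the replicate block and 0 to 3 with 1 array left out. Of the pathway genes 4 were called, 12 with array weights, 2 with the replicate block, and 0 to 5 with 1 array left out. The groups share replicate numbers, but same-numbered arrays deviated together only weakly (correlations of 0.183, 0.101 and 0.0945), and not every array matched its own number best, so the numbers were not taken as pairs. Lig4 lost its call with no filter (adjusted p = 0.0578), with quantile normalization (0.0556) and with the replicate block (0.0577), where Hes1, Il2ra and Prss2 were lost too (0.0535, 0.0801 and 0.056) and Dntt passed (0.0205). Dim probe sets lie near the array's lowest intensities, so a difference below the 40th percentile cannot be read.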
